A study of Mus musculus with 12 samples.

Results

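Endothelial cells of a vessel wall are held to one another by adherens junctions, in which VE-cadherin pairs across the cell border and is anchored to actin through catenins, and by tight junctions, in which claudins and occludin seal the cleft and zonula occludens scaffolds sit beneath them. Junctional adhesion molecules (JAMs) and related immunoglobulin proteins such as ESAM and CD31 line the same border and take part in leukocyte passage. In the lung these contacts are known as the barrier between blood and alveolar tissue. The 9 genes described here encode these border proteins in endothelium, namely Cdh5, Pecam1, Esam, Cldn5, Ocln, Tjp1, F11r, Jam2 and Jam3. They were taken by name from the 28689 genes of the expression table, and all 9 were found and passed the filter for testing.

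Transcripts were measured by RNA sequencing of mouse lung endothelial cells (MLECs) in 12 libraries, 6 of CTR and 6 of dKO mice. CTR mice were VE-CAD-CreERT2-/Sp1 fl/fl/Sp3 fl/fl littermates, which carry both floxed alleles without Cre and are labelled WT, and dKO mice were VE-CAD-CreERT2+/Sp1 fl/fl/Sp3 fl/fl. Both groups received tamoxifen for 5 consecutive days, and the mice of the study were male and 6 to 8 weeks old. The table names the dKO columns after tamoxifen, which CTR mice received too, so those 6 columns were taken as dKO because the other 6 are named as controls and the labels hold only these 2 groups. Sp1 was lower in all 6 of them and Sp3 did not pass the test, with values below. Cre was driven by the VE-cadherin promoter, the promoter of Cdh5 itself, so only dKO cells carry that transgene. Cells were selected with beads against CD31, the product of Pecam1, selected again with beads against intercellular adhesion molecule 2 at confluency, and used at passages 1 to 3. The number of mice behind a library was not given, so p-values measure only the spread between these libraries, part of which may be technical.

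Each library held between 15523054 and 17938286 fragments on genes. Sp1 fell from 21.2 ± 1.77 to 10.6 ± 1.53 FPKM (fragments scaled for transcript length and mapped library size; mean ± SD, n = 6 per group), and each dKO library lay below every CTR library. Sp3 was 27.7 ± 2.31 in CTR and 25.0 ± 1.64 FPKM in dKO (limma adjusted p = 0.0902), with 2 of 6 dKO libraries below every CTR library. These are RNA levels over the whole gene. The study reported less Sp1 and Sp3 protein by immunofluorescence in aortic endothelium of dKO mice, another measure in another tissue. In limma across 12467 genes (those that reached 1 FPKM in 6 or more of the libraries), 20.4% of genes were higher and 32.6% lower in dKO at an adjusted p under 0.05. All dKO libraries lay above all CTR libraries for 11.3% of tested genes, and below them for 16.1%.

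Of the 9 junction transcripts, 6 rose in dKO MLECs (Cdh5, Pecam1, Esam, Cldn5, F11r and Jam2), 1 fell (Jam3), and 2 did not pass the test (Ocln and Tjp1). Their median log2 fold change was 0.66, beside −0.10 over all genes tested. The ranges of the groups were apart for 3 of the transcripts that rose and for Jam3. Of 10 other endothelial markers, 8 also rose, while Flt1 and Cd34 did not pass the test (log2 fold changes 0.11 and 0.27, limma adjusted p = 0.461 and 0.195). The geometric mean of Tek, Kdr, Flt1, Tie1, Erg, Emcn, Eng, Cd34, Egfl7 and Robo4 was 8.73 ± 1.33 FPKM in CTR and 14.6 ± 2.25 FPKM in dKO libraries, a ratio of 1.68 with no overlap. When each library was divided by this level, 0 of the 9 junction transcripts were called higher (beside 4.01% of tested genes), 4 were called lower (beside 80.1%), and 5 did not pass the test. In these bulk libraries, fewer or more endothelial cells and less or more RNA per endothelial cell cannot be told apart.

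**Figure D1:**
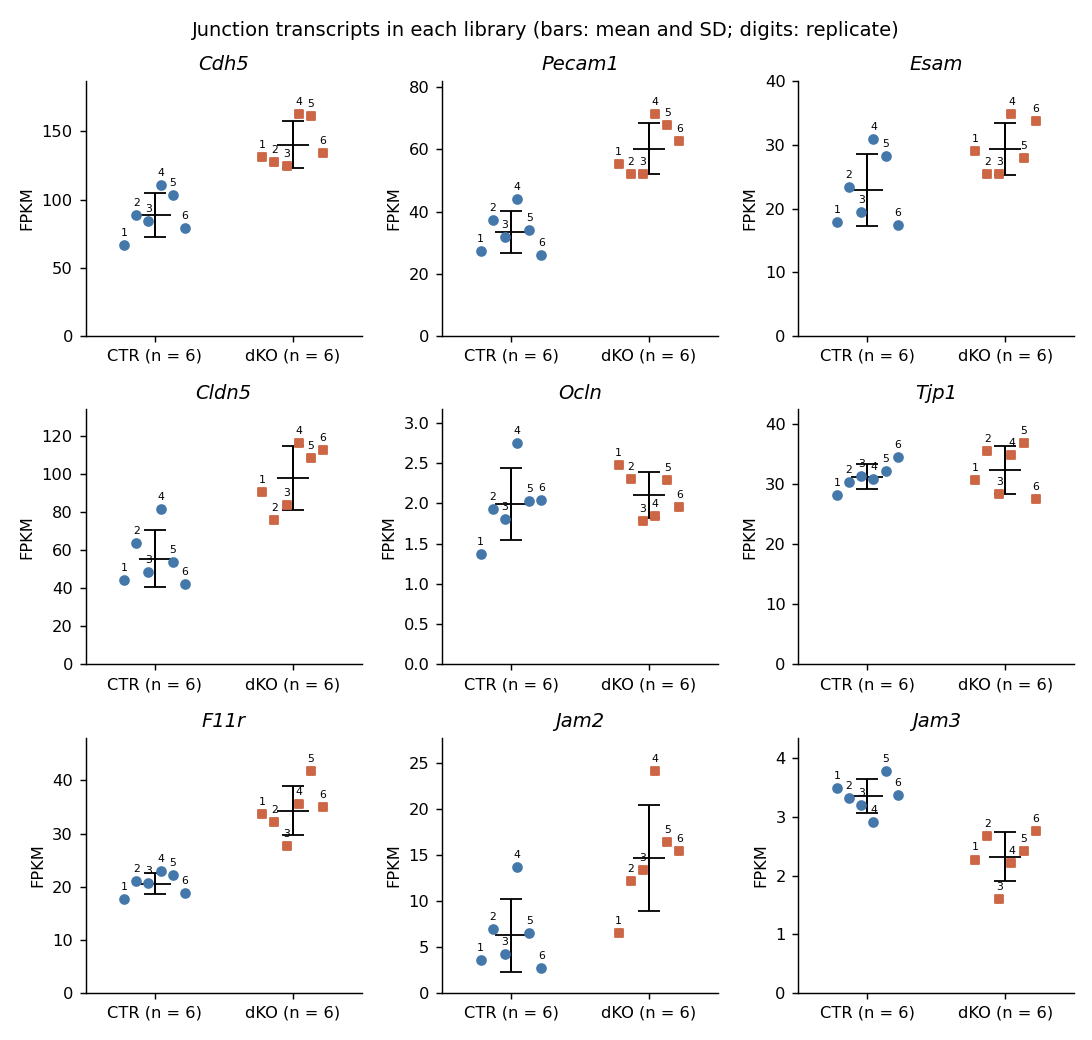
FPKM (y axis, from 0) of each junction gene in the 6 CTR (circles) and 6 dKO (squares) libraries, with mean and SD as bars and the replicate number above each point. The groups were apart for Cdh5, Pecam1 and F11r, with dKO above, and for Jam3, with dKO below, and they overlapped for the other 5 genes.

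Sp1 and Sp3 are zinc finger factors that bind GC boxes, so promoter sequence is shown for the junction genes that the RefSeq promoter table (build GRCm38.p6) holds. It matched 4 of the 9 genes, 2 that rose (Cldn5 and F11r) and 2 that did not pass the test (Ocln and Tjp1), while Cdh5, Esam, Jam2, Jam3 and Pecam1 were not matched. Each window runs 5′ to 3′ from 250 bases before the transcript start to 50 bases after it, with GGGCGG or its complement CCGCCC in capitals. The Cldn5 window is chr16:18776597-18776896 on the plus strand, F11r is chr1:171437311-171437610 on the plus strand, Ocln is chr13:100552449-100552748 on the minus strand and Tjp1 is chr7:65371195-65371494 on the minus strand.
Cldn5: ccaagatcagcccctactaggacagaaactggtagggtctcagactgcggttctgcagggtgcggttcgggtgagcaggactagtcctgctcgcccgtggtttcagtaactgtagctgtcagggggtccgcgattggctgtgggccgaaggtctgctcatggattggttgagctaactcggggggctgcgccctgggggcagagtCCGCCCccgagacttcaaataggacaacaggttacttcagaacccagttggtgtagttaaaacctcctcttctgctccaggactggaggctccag
F11r: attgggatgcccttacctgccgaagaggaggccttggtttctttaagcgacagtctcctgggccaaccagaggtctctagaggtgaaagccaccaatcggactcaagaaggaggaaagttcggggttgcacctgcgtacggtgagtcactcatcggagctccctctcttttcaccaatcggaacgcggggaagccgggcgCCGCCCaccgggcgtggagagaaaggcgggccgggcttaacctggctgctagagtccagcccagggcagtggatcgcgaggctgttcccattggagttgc
Ocln: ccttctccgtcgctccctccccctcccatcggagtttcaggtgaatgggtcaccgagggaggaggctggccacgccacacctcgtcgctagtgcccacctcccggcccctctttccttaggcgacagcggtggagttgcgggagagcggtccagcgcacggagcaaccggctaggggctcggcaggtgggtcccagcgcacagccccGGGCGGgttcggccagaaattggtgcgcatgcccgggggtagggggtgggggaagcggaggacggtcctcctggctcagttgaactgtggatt
Tjp1: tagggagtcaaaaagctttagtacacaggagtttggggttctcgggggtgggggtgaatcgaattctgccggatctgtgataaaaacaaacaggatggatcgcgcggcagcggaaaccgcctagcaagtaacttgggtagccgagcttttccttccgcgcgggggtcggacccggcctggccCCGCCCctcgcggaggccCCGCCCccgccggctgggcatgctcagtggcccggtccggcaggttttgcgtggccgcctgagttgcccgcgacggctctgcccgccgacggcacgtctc

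The box of Cldn5 began 45 bases upstream of the start, that of F11r 50 bases and that of Ocln 43 bases upstream. Tjp1 held 2 boxes, 68 and 50 bases upstream. A further Ocln window, chr13:100552669-100552968 on the same strand, held 1 box, 112 bases upstream of its start. At least 1 box was present in 5 of 5 windows of these genes, in 63.2% of the 11633 windows of tested genes and in 35.7% of all 32851 windows. The share of G and C was 58.3% for Cldn5, 60.3% for F11r, 68.0% for Ocln and 65.3% for Tjp1, beside a median of 61.0% over windows of tested genes. The boxes were thus present both in genes that rose and in genes that did not pass the test, and they are letters in a window, with no measurement of binding.

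Cdh5, on chromosome 8 (104828231 to 104871143, plus strand, GRCm39, as for all gene positions below), encodes VE-cadherin, the adhesive core of the endothelial adherens junction. CTR libraries ranged from 66.8 FPKM (replicate 1) to 111 FPKM (replicate 4), with a median of 86.5 FPKM. In dKO they ranged from 125 FPKM (replicate 3) to 162 FPKM (replicate 4), with a median of 133 FPKM. Each dKO library was above the highest CTR library. Mean levels were 88.9 ± 16.1 and 140.3 ± 17.1 FPKM, a 1.58-fold rise (log2 fold change 0.66, SE 0.12, limma adjusted p = 0.000527), and the exact two-sided permutation test over all splits into 6 and 6 gave its smallest possible p, 0.00216. Relative to the endothelial marker level the log2 difference was −0.07, with a 95% confidence interval of −0.31 to 0.16 (limma adjusted p = 0.538), so the call ended and no direction was resolved.

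Pecam1 encodes CD31, a homophilic immunoglobulin protein of the endothelial border and the antigen of the first bead selection, and lies on chromosome 11 (106543689 to 106641454, minus strand). Its level ranged from 26.1 to 44.0 FPKM in CTR libraries, with a median of 32.9 FPKM, and from 51.9 to 71.3 FPKM in dKO libraries, with a median of 59.1 FPKM. The 6 dKO libraries all lay above the CTR libraries. The means were 33.4 ± 6.66 and 60.2 ± 8.27 FPKM, a 1.80-fold rise with a log2 fold change of 0.84 (SE 0.13, limma adjusted p = 0.000147). Divided by the endothelial marker level, the difference was 0.12 on the log2 scale, with an interval of −0.10 to 0.33 (limma adjusted p = 0.298).

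Esam, on chromosome 9 (37439344 to 37449615, plus strand), encodes endothelial cell-selective adhesion molecule, an immunoglobulin protein of tight junctions that platelets also carry. CTR libraries spanned 17.4 to 31.0 FPKM around a median of 21.5 FPKM, and dKO libraries spanned 25.4 to 34.8 FPKM around a median of 28.5 FPKM. The groups overlapped, with CTR replicates 4 and 5 inside the dKO range and 2 of 6 dKO libraries above all of CTR. The rise from 22.9 ± 5.69 to 29.4 ± 4.06 FPKM was 1.28-fold (log2 fold change 0.37, SE 0.14) and passed narrowly, at a limma adjusted p of 0.0446. This call was lost when any of 8 of the 12 libraries was left out, with limma adjusted p up to 0.0955, and relative to the endothelial marker level Esam was lower in dKO, at −0.35 on the log2 scale (limma adjusted p = 0.0178).

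Among the tight junction genes, Cldn5 was the most abundant. Claudin-5, its product, is the main sealing claudin of endothelium, and the gene lies on chromosome 16 (18595597 to 18597012, plus strand) with 1 exon. Levels ran from 42.0 FPKM (replicate 6) to 81.5 FPKM (replicate 4) in CTR, with a median of 51.0 FPKM, and from 75.9 FPKM (replicate 2) to 116 FPKM (replicate 4) in dKO, with a median of 99.5 FPKM. CTR replicate 4 was the only control library to reach the dKO range, and 5 of 6 dKO libraries lay above it. The means were 55.6 ± 14.9 and 97.9 ± 16.8 FPKM, a 1.76-fold rise (log2 fold change 0.83, SE 0.16, limma adjusted p = 0.00094). Against the endothelial marker level the difference was 0.09 on the log2 scale, with an interval of −0.16 to 0.34 (limma adjusted p = 0.481).

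Ocln encodes occludin, a membrane-spanning tight junction protein that is abundant in epithelia and in brain endothelium, and lies on chromosome 13 (100630334 to 100689535, minus strand). It had the lowest mean level of the 9 genes in both groups. CTR libraries lay between 1.37 and 2.75 FPKM with a median of 1.98 FPKM, and dKO libraries lay between 1.78 and 2.47 FPKM with a median of 2.12 FPKM. The dKO range fell wholly inside the CTR range. The log2 fold change was 0.06 (SE 0.10), with a 95% confidence interval of −0.16 to 0.29 and a limma adjusted p of 0.62, at a depth of 101 to 203 fragments per library.

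Tjp1, on chromosome 7 (64945898 to 65177529, minus strand), encodes ZO-1, the scaffold that ties claudins, occludin and JAMs to actin. Levels were 28.3 to 34.5 FPKM in CTR, with a median of 31.2 FPKM, and 27.6 to 37.0 FPKM in dKO, with a median of 32.8 FPKM. The CTR range lay inside the dKO range. The means of 31.3 ± 2.08 and 32.4 ± 3.98 FPKM gave a log2 fold change of 0.04 (SE 0.08), with an interval of −0.14 to 0.22 (limma adjusted p = 0.692), so differences beyond these bounds were not detected. On the scale of the endothelial marker level both were called lower in dKO: Tjp1 was at −0.68 (limma adjusted p = 0.000287) and Ocln at −0.43 (limma adjusted p = 0.00272) on the log2 scale, where the median over all genes tested was −0.72.

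The JAM genes moved in different directions. F11r encodes JAM-A, which is shared by endothelium, epithelium, platelets and leukocytes, and lies on chromosome 1 (171265092 to 171292958, plus strand). CTR libraries were close together, from 17.7 to 22.9 FPKM with a median of 20.9 FPKM, and dKO libraries ran from 27.6 to 41.7 FPKM with a median of 34.3 FPKM. Each dKO library was above each CTR library. The means of 20.6 ± 1.97 and 34.3 ± 4.63 FPKM differed 1.67-fold, with a log2 fold change of 0.71 (SE 0.09) and the smallest adjusted p of the 9 genes (limma, 5.31e-05). Relative to the endothelial marker level the difference was −0.01 on the log2 scale, with an interval of −0.24 to 0.21 (limma adjusted p = 0.921), so the call ended and no direction was resolved.

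Jam2 encodes JAM-B, a JAM known mainly from endothelium, and lies on chromosome 16 (84570764 to 84623269, plus strand). Its CTR levels were 3.57, 6.94, 4.23, 13.7, 6.57 and 2.68 FPKM in replicates 1 to 6, and its dKO levels were 6.56, 12.2, 13.4, 24.1, 16.4 and 15.4 FPKM. The groups overlapped: CTR replicates 2, 4 and 5 were within the dKO range and dKO replicates 1, 2 and 3 within the CTR range, and the highest CTR library was 5.10-fold above the lowest. The means rose 2.34-fold, from 6.28 ± 3.99 to 14.7 ± 5.77 FPKM, with the largest log2 fold change and the largest SE of the 9 genes (1.18, SE 0.33, limma adjusted p = 0.00927). Without CTR replicate 4 the log2 fold change was 1.41 (limma adjusted p = 0.00118), and relative to the endothelial marker level it was 0.53, with an interval of −0.01 to 1.06 (limma adjusted p = 0.0617).

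Jam3 encodes JAM-C, the counter-receptor of JAM-B at cell borders, which fibroblasts and smooth muscle cells carry as well, and lies on chromosome 9 (27005652 to 27066915, minus strand). CTR levels were 3.50, 3.33, 3.21, 2.92, 3.78 and 3.38 FPKM, and dKO levels were 2.27, 2.67, 1.60, 2.21, 2.43 and 2.76 FPKM. Each dKO library lay below the lowest CTR library, replicate 4. The mean fell from 3.35 ± 0.288 to 2.33 ± 0.416 FPKM, to 0.694 of the CTR level (log2 fold change −0.40, SE 0.09, limma adjusted p = 0.00272). The exact permutation test gave its smallest possible p, 0.00216, at a depth of 90 to 207 fragments per library. Relative to the endothelial marker level the difference was −0.94 on the log2 scale (limma adjusted p = 1.37e-05).

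For 2 JAM genes, the GENCODE annotation used here has exons shared with another gene of the table on the opposite strand. The lengths recovered from the deposited values were shorter than annotated, at 5872 against 11064 bases for Jam2 and 3200 against 6841 for Jam3. Whether the shared bases were counted is thus not known. The strand setting of the counting was not given in the sources used here, so reads of the partners, where counted, cannot be told apart. Jam2 shares 485 bases with Atp5pf, a subunit of the mitochondrial ATP synthase, which was at 21.7 ± 1.71 FPKM in CTR and 26.0 ± 2.83 FPKM in dKO. Jam3 shares 767 bases with Ncapd3, a condensin subunit, at 4.14 ± 1.18 and 3.003 ± 0.411 FPKM (limma adjusted p = 0.0509), and 1391 bases with Gm48796, at 0.157 ± 0.0411 and 0.0706 ± 0.0518 FPKM. In the same annotation, Cdh5, Ocln and F11r share 87, 167 and 178 bases with opposite-strand genes that the table does not list.

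**Figure D2:**
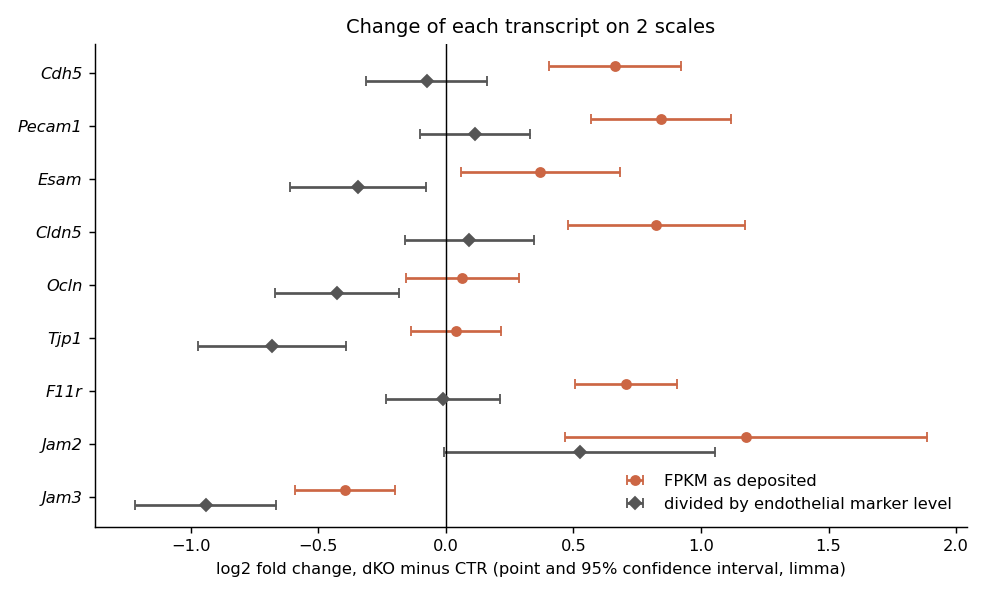
Log2 fold change of dKO minus CTR (x axis) for each junction gene from limma, on FPKM as deposited (circles) and after each library was divided by its endothelial marker level (diamonds), with 95% confidence intervals. On the first scale 6 intervals lie above 0 and that of Jam3 below, and on the second none lies above 0 and those of Esam, Ocln, Tjp1 and Jam3 lie below.

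In CTR libraries the mean FPKM, a level per transcript length, ran in the order Cdh5, Cldn5, Pecam1, Tjp1, Esam, F11r, Jam2, Jam3 and Ocln. Only F11r and Jam2, and Jam3 and Ocln, had ranges that did not overlap with their neighbour in this order, although Cdh5 was above Cldn5 and Cldn5 above Pecam1 within each of the 6 libraries. In dKO libraries F11r moved ahead of Tjp1 and Esam, and the order was otherwise the same. There the ranges of F11r and Tjp1, of Tjp1 and Esam, and of Jam3 and Ocln overlapped, and those of the other neighbours in the order were apart.

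Among CTR libraries, replicate 4 was highest for 7 of the 9 genes, all but Tjp1 and Jam3, and replicates 1 and 6 held the lowest value for 4 genes each. The endothelial marker level had the same extremes, with 10.8 FPKM in CTR replicate 4 and 7.27 and 7.47 FPKM in replicates 6 and 1. In dKO, replicate 4 was highest for 5 genes, and the marker level was highest in replicates 5 and 4, at 17.6 and 17.1 FPKM.

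**Figure D3:**
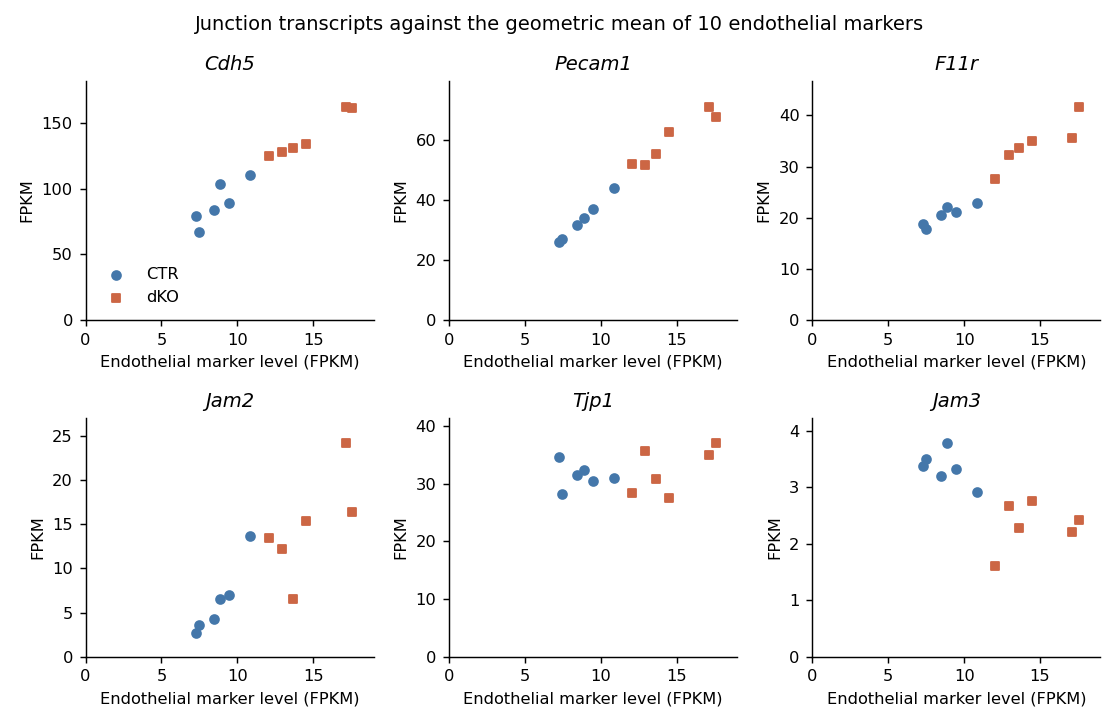
FPKM of 6 junction genes (y axes, from 0) against the geometric mean FPKM of 10 other endothelial markers (x axes, from 0) in each CTR (circles) and dKO (squares) library. CTR libraries lie between 7.27 and 10.8 FPKM on the x axis and dKO libraries between 12.1 and 17.6 FPKM, with Cdh5, Pecam1 and F11r higher at higher marker levels, Tjp1 at 27.6 to 37.0 FPKM throughout and Jam3 lower in dKO.

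The balance of junction transcripts inside each library, which no scaling of a library can move, was compared with Cdh5 as the reference in 8 ratios, and within the JAM genes as 3 shares, each with an exact two-sided permutation test and without adjustment over the 11 comparisons. The ratio of Jam3 to Cdh5 fell the most, to 0.431 of its CTR value (log2 difference −1.21, exact p = 0.00216). The ratios of Tjp1 to Cdh5 (log2 difference −0.63) and of Ocln to Cdh5 (−0.57) fell too, each at the smallest possible exact p of 0.00216. In all 3 ratios the groups did not overlap. Cdh5 itself rose 1.58-fold, while Tjp1 and Ocln did not pass the test on their own levels, so these 2 ratios follow the rise of Cdh5. A different mix of cells in a library can move such ratios and shares as well, and its part was not tested. Esam to Cdh5 was lower by −0.28 on the log2 scale (exact p = 0.0152) and Pecam1 to Cdh5 higher by 0.19 (exact p = 0.00866), both with overlapping ranges. F11r to Cdh5 differed by 0.06 (exact p = 0.394), Cldn5 to Cdh5 by 0.17 (exact p = 0.167) and Jam2 to Cdh5 by 0.67 (exact p = 0.0779), none past 0.05. Without CTR replicate 4 or dKO replicate 1, the Jam2 ratio differed by 0.87 or 0.86 (exact p = 0.0238 in each).

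Of the summed FPKM of the JAM genes, F11r made up 69.0 ± 6.24% in CTR and 67.4 ± 7.10% in dKO (exact permutation p = 0.693, n = 6 per group). Jam3 made up 11.5 ± 2.40% in CTR and 4.59 ± 0.916% in dKO (exact permutation p = 0.00216), and its lowest CTR share, 7.38% in replicate 4, was above its highest dKO share, 5.67%. Jam2 made up 19.5 ± 8.45% and 28.0 ± 7.71% (exact permutation p = 0.102). Leaving out CTR replicate 4 or dKO replicate 1 put the Jam2 share past the threshold, at 11.5 and 10.96 percentage points higher in dKO (exact permutation p = 0.0216 and 0.0368). The transcripts of the JAM genes thus held less Jam3 in each dKO library, with F11r as the most abundant member in each of the 12 libraries.

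**Figure D4:**
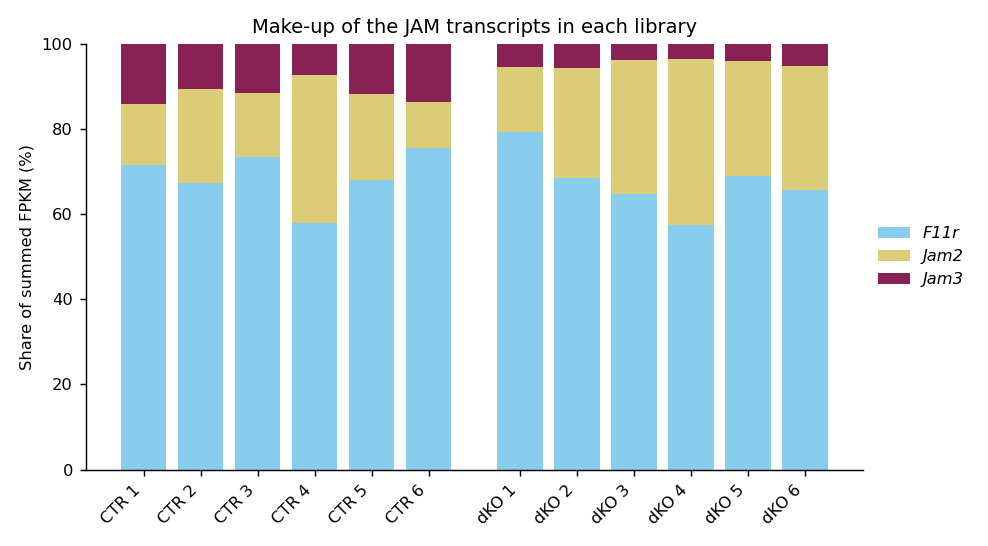
Share of F11r, Jam2 and Jam3 in their summed FPKM (y axis, percent, from 0 to 100) in each CTR and dKO library. Jam3 takes 7.38 to 14.1% in CTR and 3.57 to 5.67% in dKO libraries, and F11r takes the largest share in all 12.

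Other genes of cell junctions, some of them known mainly from epithelia, such as Cldn3, Cldn4 and Cldn18, were taken as a list of 64, of which 52 were tested. Of these, 22 rose (42.3%, beside 20.4% of all tested genes), 4 fell (7.69%, beside 32.6%) and 26 did not pass the test. Their median log2 fold change was 0.17, beside −0.10 over all genes tested. After division by the endothelial marker level, 5 were called higher and 37 lower, where 4.01% of all tested genes were higher and 80.1% lower. Of the genes that rose on FPKM as deposited, Cadm1, Lsr, Cgn and Tiam1 reached 1 FPKM in every dKO library but not in every CTR library.

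Of the adherens junction genes, which include nectins and linked proteins beside cadherins and catenins, 6 of 11 tested rose (54.5%, beside 20.4% of all tested genes). None fell (beside 32.6%). Cdh13, which encodes the membrane-anchored T-cadherin, rose from 1.54 ± 0.179 to 5.29 ± 0.932 FPKM (log2 fold change 1.30, limma adjusted p = 9.09e-07). Jup, which encodes plakoglobin, the catenin shared by VE-cadherin and desmosomes, rose from 11.8 ± 1.80 to 20.6 ± 1.73 FPKM (log2 fold change 0.76, limma adjusted p = 2.68e-05). Ptprb, which encodes the phosphatase VE-PTP that holds VE-cadherin unphosphorylated, rose by 0.45 on the log2 scale (limma adjusted p = 0.0128) with overlapping groups. The dKO libraries of Cdh13 and Jup all lay above those of CTR, and Cdh13 alone of these 3 was called higher after division by the endothelial marker level (log2 difference 0.75, limma adjusted p = 1.87e-05).

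Of 12 listed claudins and occludin relatives other than Cldn5 and Ocln, 6 were tested. Of these, 2 rose (33.3%, beside 20.4% of all tested genes) and none fell (beside 32.6%). Those that rose were Cldn7 (log2 fold change 0.37, limma adjusted p = 0.0488), a claudin of epithelia, and Lsr (0.36, limma adjusted p = 0.0299), which encodes a protein of tricellular contacts. Lsr lay near the filter of 1 FPKM, at 0.766 to 1.24 FPKM in CTR and 1.21 to 2.67 FPKM in dKO libraries. The other listed genes did not pass the filter, so their changes were not tested. Among them, the means of Cldn10 were 1.55 FPKM in CTR and 0.317 FPKM in dKO, and those of Cldn11 were 1.53 and 0.698 FPKM. Both had overlapping ranges. Cldn1, Cldn15 and Marveld3 had higher means in dKO, and that of Marveld2 was 0.81 FPKM in both groups. Among tight junction scaffolds and polarity proteins, 4 of 9 rose (44.4%, beside 20.4% of all tested genes) and 2 fell (22.2%, beside 32.6%). Cgnl1, which encodes paracingulin, rose from 7.18 ± 0.474 to 17.8 ± 2.29 FPKM with no overlap (log2 fold change 1.19, limma adjusted p = 5.18e-07), and its relative Cgn, which encodes cingulin, rose by 0.47 on the log2 scale (limma adjusted p = 0.013). Pard6g, a member of the Par polarity complex, rose by 0.32 on the log2 scale (limma adjusted p = 0.00745). Prkci, the atypical kinase of that complex, was lower, with a log2 fold change of −0.35 (limma adjusted p = 0.0132), and so was Mpdz, a PDZ scaffold, at −0.30 (limma adjusted p = 0.0284). Pard6g turned to −0.37 after division by the endothelial marker level (limma adjusted p = 0.0104), the call of Cgn ended, at 0.0015 (limma adjusted p = 0.994), and Cgnl1 stayed higher, at 0.51 (limma adjusted p = 0.000952).

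Of the gap junction connexins, 2 of 4 tested rose, and both are known for arterial endothelium. Gja5, which encodes connexin 40, rose from 3.48 ± 2.34 to 9.07 ± 2.85 FPKM (log2 fold change 1.23, limma adjusted p = 0.0041), and Gja4, which encodes connexin 37, rose from 1.84 ± 0.391 to 3.45 ± 0.527 FPKM (0.65, limma adjusted p = 0.000242). Relative to the endothelial marker level Gja5 stayed higher, at 0.64 (limma adjusted p = 0.0259), and Gja4 did not, at 0.12 (limma adjusted p = 0.351). Of 7 other contact proteins tested, 4 rose (57.1%, beside 20.4% of all tested genes) and 1 fell (14.3%, beside 32.6%). Icam2, which encodes the antigen of the second bead selection, rose from 4.95 ± 1.38 to 13.0 ± 2.40 FPKM (log2 fold change 1.25, limma adjusted p = 2.35e-05). Cadm1 rose by 0.97 on the log2 scale (limma adjusted p = 1.28e-05), from 0.783 ± 0.184 to 2.52 ± 0.537 FPKM. Its CTR mean was below 1 FPKM, so it passed the filter through the dKO libraries, where it was high. Mcam, which encodes CD146, rose by 0.29 on the log2 scale (limma adjusted p = 0.0132). Alcam, an adhesion protein that fibroblasts carry too, fell from 28.2 ± 2.53 to 15.5 ± 1.80 FPKM with all dKO libraries below CTR (log2 fold change −0.83, limma adjusted p = 7.41e-06). After division by the endothelial marker level, Icam2 and Cadm1 stayed higher, at 0.59 and 0.56 on the log2 scale (limma adjusted p = 0.000334 and 0.00139). Alcam was at −1.53 on that scale (limma adjusted p = 7.13e-07).

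Of 15 junction regulators tested, 4 rose (26.7%, beside 20.4% of all tested genes) and 1 fell (6.67%, beside 32.6%). Rapgef5, an exchange factor of Rap GTPases, rose by 0.71 on the log2 scale (limma adjusted p = 0.0297), and Arhgap29, a GTPase-activating protein of the Rap1 pathway, rose by 0.46 with no overlap (limma adjusted p = 0.000994). Tiam1, an exchange factor of Rac, rose by 0.38 on the log2 scale (limma adjusted p = 0.0201). It lay near the filter of 1 FPKM, at 0.794 to 1.39 FPKM in CTR and 1.18 to 2.57 FPKM in dKO libraries. Krit1, a partner of Rap1 at junctions, had a log2 fold change of −0.18 (limma adjusted p = 0.0396). Relative to the endothelial marker level, the call of Rapgef5 ended, at 0.039 on the log2 scale (limma adjusted p = 0.845). On the same scale Arhgap29 turned to −0.25 (limma adjusted p = 0.0449), Mcam turned to −0.44 (limma adjusted p = 0.00357), and Cldn7, Lsr, Tiam1 and Ptprb also had differences below 0 without passing the test. Of the named genes of the wider list, Cldn7, Lsr, Mpdz, Rapgef5 and Krit1 lost their call under 13, 5, 11, 8 and 12 of their 23 or 24 other alternatives, with highest limma adjusted p of 0.106, 0.0658, 0.108, 0.0647 and 0.195, without a change of direction.

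**Figure D5:**
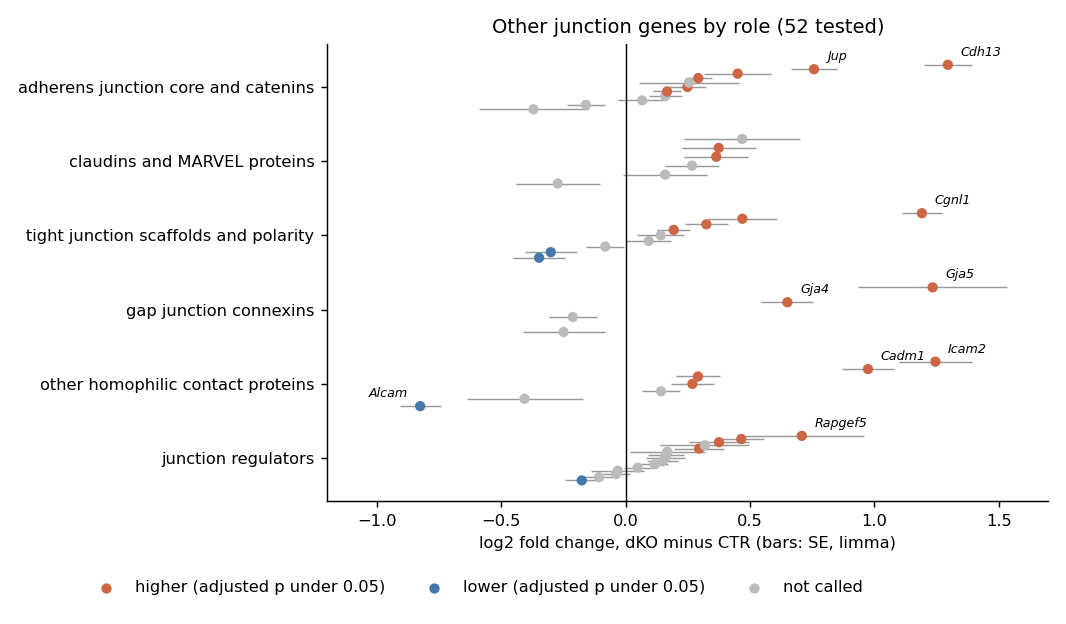
Log2 fold change of dKO minus CTR on FPKM as deposited (x axis, bars give the SE from limma) for the 52 tested genes of the wider junction list, in rows by role. Orange points were higher and blue points lower at an adjusted p under 0.05, grey points did not pass, and the largest changes are named.

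The tested genes whose log2(FPKM + 1) followed each junction gene most closely over the 12 libraries were found by Pearson's r, which here includes the difference between groups. Cldn5 was nearest to Grap (r = 0.995), Pecam1 (r = 0.985) and Kank3 (r = 0.983). Pecam1 was nearest to Afap1l1 (r = 0.988), Grap (r = 0.987) and Cldn5. For Cdh5 the nearest were Podxl (r = 0.979), Ppp1r16b (r = 0.973) and Aggf1 (r = 0.969), and for F11r they were Ece1 (r = 0.989), Slc45a3 (r = 0.981) and Erg (r = 0.979), an endothelial transcription factor. Jam2 was nearest to Fmo4 (r = 0.979), Prelp (r = 0.979) and Rapgef5 (r = 0.978). Esam was nearest to Cmtm3 (r = 0.958), Abhd13 and Map1lc3b, and Jam3 to Kptn (r = 0.940), Cetn4 and Bivm. Tjp1 (Alkbh5, r = 0.923, then Aff4 and Fosl2) and Ocln (Vgll4, r = 0.842, then Sgsm3 and 2210016L21Rik) had the lowest nearest values.

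Markers of other cells moved with the groups as well. Of 10 macrophage markers, 9 were higher and 1, Marco, was lower in dKO, and their summed level was 859 to 1432 FPKM in CTR and 2476 to 5678 FPKM in dKO libraries. Macrophages, leukocytes and platelets are known to carry CD31 and JAM-A, and 2 of 2 tested leukocyte markers (of 8 listed) and 1 of 2 tested platelet markers (of 6 listed) were higher too. Summed platelet markers were 19.7 to 47.8 FPKM in CTR and 64.3 to 126 FPKM in dKO, mainly Pf4. The platelet-defining Itga2b was at 0.648 ± 0.127 FPKM in CTR and 0.243 ± 0.0692 FPKM in dKO, with every dKO library below CTR, and Gp1ba was at 0.342 ± 0.0981 and 0.331 ± 0.0942 FPKM; both were too low to be tested. Of 5 lymphatic endothelial markers 3 were higher, with sums of 88.6 to 162 FPKM in CTR and 112 to 226 FPKM in dKO. Of 5 mesothelial markers 4 were higher, with sums of 21.4 to 30.6 FPKM and 58.1 to 135 FPKM.

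Fibroblast markers ran the other way for 3 of 5 tested, the collagen genes Col1a1, Col1a2 and Col3a1. Dcn was higher, Pdgfra did not pass the test (log2 fold change −0.18, limma adjusted p = 0.564), and Lum was too low to be tested. The sum of the fibroblast markers was 2122 to 2689 FPKM in CTR and 819.9 to 1645 FPKM in dKO libraries, led by Col1a1 at 1173 ± 65.1 and 572 ± 128 FPKM. Smooth muscle and pericyte markers summed to 497 to 1423 FPKM and 454 to 845 FPKM, with 2 of 6 tested genes higher and none lower. Lung epithelial markers, which bear on Ocln, F11r and Cldn7, summed to 89.4 to 522 FPKM in CTR and 153.5 to 366 FPKM in dKO, and 1 of 8, Epcam, was higher. Endothelial markers themselves were all present in both groups, 8 of 10 were higher in dKO, and their sum was 86.1 to 124 FPKM in CTR and 149.7 to 221 FPKM in dKO. The part of each of these cell types in the changes of the junction genes was not tested.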

How the data were processed

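RNA of 12 MLEC libraries (6 CTR, 6 dKO) was compared. The authors deposited one table of FPKM values per gene. By their methods, reads were trimmed with Trimmomatic and aligned to mm39 with STAR, and unique reads were taken with sambamba; the submitters' processing notes name Bowtie2 2.2.3, HISAT2 2.1.0 and TopHat2 and not STAR, both sources name DESeq2, and the sample labels describe retinas and another library kit. The counting program, annotation and strand setting were not given in the sources used here.

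Here log2(FPKM + 1) was fitted with limma 3.58.1 (lmFit, eBayes with a trend, no covariate) in R 4.3.3 over 12467 of 28689 genes, those that reached 1 FPKM in 6 or more libraries, with Benjamini-Hochberg adjustment over all of them and a threshold of 0.05. Fold changes on this scale understate the change of low genes. Ratios and shares were tested by exact two-sided permutation over all splits into 6 and 6 (Python 3.11.15, SciPy 1.17.1). Fragments behind each value were recovered as whole numbers for all genes (tolerance 0.0001), giving 15523054 to 17938286 per library, and were used for depth and for limma-voom as an alternative. The recovered lengths of 0 of the 9 genes equalled those of the GENCODE annotation used here for symbols and GRCm39 positions. The endothelial marker level is the geometric mean FPKM of 10 markers that exclude the 9 genes. The fit was tested on simulated data with planted changes.

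Genes named are the 9 junction genes, up to 3 called genes per direction and role of the wider list, the 3 nearest genes of each junction gene, and markers. The junction genes, lists and tests were chosen with earlier results of these data known. Alternatives were other pseudocounts, filters, scalings and tests, a block by replicate number, and fits without each library in turn.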

Additional observations from a re-analysis of the deposited data

Results flagged for a closer look

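Among the 80 sets of 6 libraries examined (each gene named from the junction lists and each ratio or share, in each group), 3 held a library whose gap to its nearest neighbour exceeded the share of the range that Dixon's 95% limit allows for 6 values, where chance gives about 1 in 20, or 4.0 sets. Prkci was at 25.6 FPKM in CTR replicate 6, with the other CTR libraries at 16.7 to 19.9 FPKM. Gja5 was at 7.92 FPKM in CTR replicate 4, with the others at 1.60 to 3.68 FPKM, and this library also held the highest CTR values of 7 of the 9 junction genes. Gja4 was at 4.50 FPKM in dKO replicate 4, with the others at 3.03 to 3.34 FPKM. None of the 9 junction genes had such a library.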

How the results depend on the processing

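Apart from division by the endothelial marker level, the alternatives kept the direction and call of Cdh5, Pecam1, Cldn5, F11r, Jam2 and Jam3, with limma log2 fold changes of 0.55 to 0.76, 0.78 to 0.93, 0.75 to 0.94, 0.65 to 0.80, 1.01 to 1.41 and −0.54 to −0.33. Jam3 and Ocln could not be tested under the filter of at least 5 FPKM, which left 0 of the 9 genes lower and 12 of the wider list higher. Esam was not called without a filter (0.37, limma adjusted p = 0.0861), in TPM (0.33, 0.0665) and by the exact permutation test over all genes (0.37, 0.0829), nor when CTR replicate 1, 2, 3 or 6 or dKO replicate 1, 4, 5 or 6 was left out (log2 fold change 0.30 to 0.46 over the 12 fits). Ocln and Tjp1 had log2 fold changes of −0.00037 to 0.13 and −0.0068 to 0.13, and no call.

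Division by the endothelial marker level gave −0.074 for Cdh5, 0.091 for Cldn5, −0.43 for Ocln, −0.68 for Tjp1, −0.35 for Esam, 0.53 for Jam2, −0.012 for F11r and 0.12 for Pecam1. It left 0 of the 9 genes higher and 4 lower, and 5 of the wider list higher and 37 lower; by construction it divides dKO libraries by higher marker levels than CTR libraries, and it moves the median of all tested genes from −0.10 to −0.72. With median-of-ratios scaling, 3213 tested genes were higher and 3012 lower, in place of 2549 and 4065, and the 9 genes kept their calls.

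The 4 genes of the wider list that were lower became 2 with quantile normalization, 2 with median-of-ratios scaling and 9 with array weights, and ranged from 2 to 6 when a library was left out (2 without CTR replicate 2, CTR replicate 3 or dKO replicate 6, 6 without dKO replicate 1); the cause was not tested. The log2 ratio of Jam2 to Cdh5 differed by 0.49 to 0.87 and the Jam2 share by 6.25 to 11.5 percentage points when a library was left out, and other ratios and shares kept their calls.

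Replicate numbers are shared by the groups, and the deviations of same-numbered libraries correlated at −0.108 to 0.565. CTR replicates 4 (0.565) and 1 (0.436) correlated best with the dKO library of their own number, and the other CTR libraries did not. The numbers were not taken as pairs, though a shared origin of some libraries was not tested. With the replicate number as a block, 2675 genes were higher and 4280 lower, and the calls of the 9 genes did not change (Esam, limma adjusted p = 0.0324; Jam2, 0.0011). The share of G and C was used as a description only. Depth limits Ocln and Jam3 most, at 101 to 203 and 90 to 207 fragments per library.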
